A study of Mus musculus with 2 samples.

Results

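Thymic egress genes are described here as the 6 genes Klf2, Klf6, S1pr1, S1pr4, Foxo1 and Foxp1, chosen by name and matched by mouse gene ID, out of 24532 gene IDs in the deposited tables. All 6 were measured. The RNA came from CD69+ DP thymocytes, T cell precursors that bear both CD4 and CD8 and have gained the activation marker CD69 after a T cell receptor signal, sorted from C57BL/6 mice aged 6 weeks. The library labelled KO came from NSRP1f/fCD4Cre mice, in which Cre recombinase is driven by Cd4 regulatory sequences and is active from the DP stage. The library labelled WT came from NSRP1f/f mice, so both genotypes carry the floxed Nsrp1 alleles and the controls lack Cre. There was 1 library per genotype, the sources used here do not say how many mice stand behind each, and no difference has a replicate check. No test was made. Each interval is a 95% interval from estimated read pairs and covers counting error only, not the spread between mice.

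A thymocyte leaves the thymus when it senses sphingosine 1-phosphate (S1P), a lipid that is abundant in blood and scarce in tissue. The receptor for this step is S1PR1. The zinc finger factor KLF2 switches on S1pr1, and the forkhead factor FOXO1, which is held in the cytoplasm when PI3K and AKT are active, switches on Klf2. CD69 binds S1PR1 and keeps it off the cell surface, so cells that carry CD69 are held back. In the thymus this programme belongs mainly to mature single-positive cells, which come after the DP stage.

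The depth was 5076 covered megabases for the library labelled KO and 4199 for the library labelled WT. The targeted gene Nsrp1 stood at 29.6 TPM (27.9 to 31.5) for the library labelled KO and at 29.7 TPM (27.7 to 31.9) for the library labelled WT, where TPM is transcript abundance scaled to a sum of 1000000 per library. Its 7 exons had depth ratios of 0.827 to 1.08, so the deletion is not visible in Nsrp1 RNA, and the directions below go by the labels alone. Of 10 DP identity genes, Cd8a was at 1151 and 1138 TPM and Cd4 at 663 and 725 TPM in the libraries labelled KO and WT. Cd69 was at 522 and 430 TPM. The lowest of the 10 in level were Rag2, at 44.3 and 35.5 TPM, and Ptcra, at 16.0 and 13.6 TPM. RNA of both sexes was present in unequal amounts, with Xist at 76.3 TPM in the library labelled KO and 202 TPM in the library labelled WT, and effects of sex and of genotype cannot be told apart. The heat shock gene Hspa1b, whose reads may be split with its near-identical copy Hspa1a, had the lowest fold change of all genes, at 0.558 TPM in the library labelled KO and 493 TPM in the library labelled WT.

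Each of the 6 egress genes had less RNA in the library labelled KO, and Klf2 and S1pr1 were lower by more than 2-fold. Fold changes are log2 ratios of TPM + 1, the library labelled KO over the library labelled WT, and a gene passed the size rule at 1 or more on this scale. The rule is a threshold of size and not a test. The 6 genes were chosen with earlier results of these data known, so the shares below describe them and are no independent support for a group difference. Among the 12029 genes that reached 1 TPM in one library or both, 1.37% were lower by 1 or more, against 2 of the 6 egress genes. Higher by 1 or more were 0.657% of all genes and 0 of the 6. By count, 165 genes were lower and 79 higher by this much. With FPKM, the other deposited unit, and a pseudocount of 1 FPKM, the counts over the same 12029 genes were 50 and 51, and they were also 50 and 51 over the 10919 genes that reached 1 FPKM. Fold changes below 0 were found for 61.5% of all genes and for 6 of the 6. The median log2 fold change was -0.47 over the 6 genes and -0.07 over all 12029. In bulk RNA, fewer cells at a stage and less RNA per cell cannot be told apart.

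**Figure D1:**
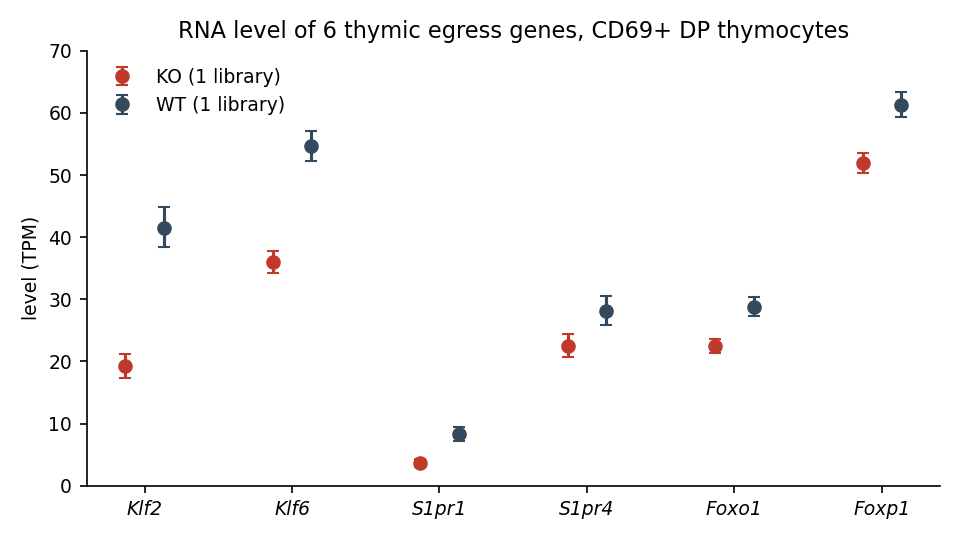
RNA level in TPM (y axis) of each egress gene (x axis), in the library labelled KO (red) and the library labelled WT (dark), 1 library each, with 95% Poisson intervals from estimated read pairs. In each gene the point of the library labelled KO lies below that of the library labelled WT, with the widest gaps at Klf2 (19.3 and 41.5 TPM) and Klf6 (35.9 and 54.7 TPM).

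Klf2 encodes the zinc finger factor that drives the exit programme and keeps T cells quiescent. It stood at 19.3 TPM (17.4 to 21.3) for the library labelled KO and at 41.5 TPM (38.4 to 44.8) for the library labelled WT. The log2 fold change was -1.07, the 128th lowest of 12029 genes, and the level was 2.16-fold lower (1.90 to 2.45) for the library labelled KO. These values rest on 390 read pairs in the library labelled KO and 652 in the library labelled WT. In level Klf2 was below Foxo1 in the library labelled KO and above it in the library labelled WT, and their counting intervals did not overlap in either library, though they came close in the library labelled KO.

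Klf2 (gene ID 16598) lies on chromosome 8 at 72319062 to 72321654 of mm10, plus strand, with 3 exons in a single RefSeq transcript, NM_008452. Exon 1 was at 7.45 TPM-equivalents in the library labelled KO and 23.1 in the library labelled WT, where a TPM-equivalent is exon depth on the scale of TPM. That exon held only 7.31 and 17.6 read pairs, and its log2 depth ratio of -1.63 had an interval of -3.11 to -0.32. Exon 2, which is coding throughout, was at 20.6 and 41.0 TPM-equivalents (log2 ratio -0.99, -1.26 to -0.72). Exon 3, which ends the coding sequence and holds the 3' untranslated region, was at 19.2 and 43.8 TPM-equivalents (log2 ratio -1.19, -1.45 to -0.93). Each of the 3 exons was thus lower, with an interval wholly below 0. None of the 50-base words of the Klf2 transcript occurs in another annotated gene.

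The 250 bases before the Klf2 start are shown because Klf2 had the lowest log2 fold change of the 6 and because this proximal region holds a known element of its control. They are chr8:72318812-72319061 of GRCm38.p6, plus strand, from RefSeq, and capitals mark each match to the motifs searched on both strands: CACCC, the core bound by Krüppel-like factors, TGTTTNC, a forkhead core, and the MEF2 consensus.
Klf2: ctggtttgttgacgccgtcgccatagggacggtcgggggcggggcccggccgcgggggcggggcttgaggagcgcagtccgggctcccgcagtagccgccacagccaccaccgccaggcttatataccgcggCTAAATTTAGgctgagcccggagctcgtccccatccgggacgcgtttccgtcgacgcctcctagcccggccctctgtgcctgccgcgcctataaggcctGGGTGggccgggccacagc
The MEF2 consensus matched at 1 place, which starts 118 bases before the transcript start and reads as a match on both strands. CACCC matched on the opposite strand 19 bases before the start, and TGTTTNC did not occur. Of 32817 RefSeq promoter windows of this length, 2.92% hold the MEF2 consensus, 52% hold CACCC and 17.8% hold TGTTTNC. A match is a description of the sequence and not of binding.

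S1pr1 encodes the S1P receptor that thymocytes use to exit. It was the lowest of the 6 genes in level in both libraries, at 3.61 TPM (2.99 to 4.31) for the library labelled KO and 8.28 TPM (7.22 to 9.46) for the library labelled WT. The log2 fold change was -1.01, the 160th lowest of 12029, and without a pseudocount the level was 2.30-fold lower (1.83 to 2.89) for the library labelled KO. The gene had 122 read pairs in the library labelled KO and 217 in the library labelled WT. S1pr1 (gene ID 13609) lies on chromosome 3 at 115710433 to 115715055, minus strand, with a noncoding first exon and a second exon that carries the whole coding sequence (NM_007901). The second exon was at 3.92 and 8.97 TPM-equivalents in the libraries labelled KO and WT (log2 ratio -1.19, -1.53 to -0.86). The first exon had 4.46 and 8.80 read pairs, and its interval of -3.39 to 0.45 includes 0.

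For both genes the size rule is close to the estimate. The log2 ratio without pseudocount was -1.11 for Klf2 (-1.29 to -0.93) and -1.20 for S1pr1 (-1.53 to -0.87), so counting error alone reaches both sides of 2-fold. With a pseudocount of 5 TPM, or with FPKM and a pseudocount of 1 FPKM, neither gene passed the rule. In FPKM, Klf2 was at 8.29 and 16.68 and S1pr1 at 1.55 and 3.33 in the libraries labelled KO and WT. Without a pseudocount both pairs lie just more than 2-fold apart, and a pseudocount of 1 weighs more on these smaller values than on TPM. With the TPM of the library labelled KO rescaled by the median ratio, Klf2 passed and S1pr1 did not.

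**Figure D2:**
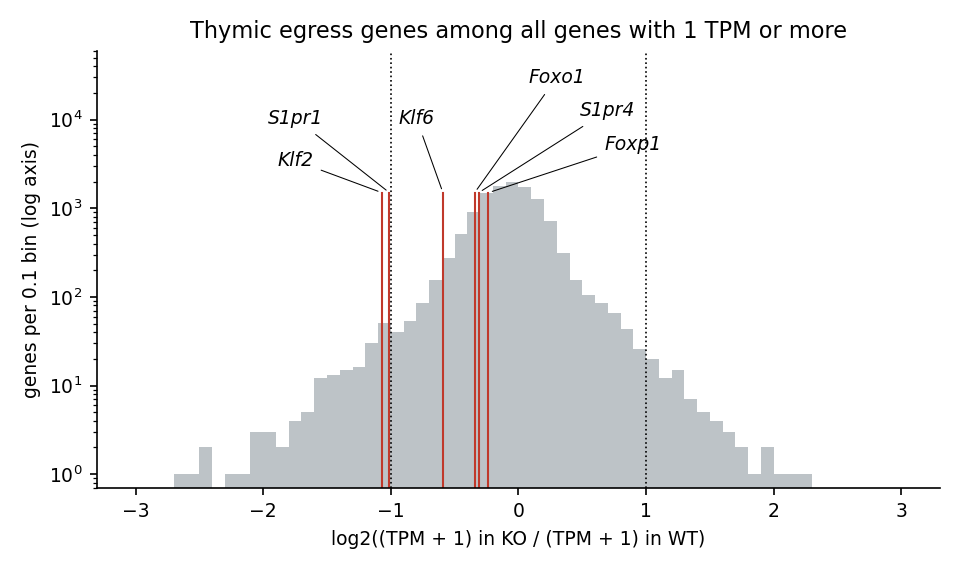
Number of genes (y axis, log scale) per 0.1 bin of the log2 fold change, library labelled KO over library labelled WT (x axis), for 12029 genes, of which 10 lie outside the plotted range of -3 to 3. Red lines mark the egress genes, with Klf2 (-1.07) and S1pr1 (-1.01) just past the dotted line at -1 and the other 4 between -0.59 and -0.24.

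Klf6 and S1pr4 are the second KLF factor and the second S1P receptor of the set. Klf6, a zinc finger factor that is quickly induced by many stimuli, stood at 35.9 TPM (34.3 to 37.7) for the library labelled KO and at 54.7 TPM (52.3 to 57.1) for the library labelled WT. Its log2 fold change was -0.59, and 4.29% of all genes were lower. S1pr4, a receptor found mainly on lymphoid cells, stood at 22.5 TPM (20.7 to 24.3) and 28.1 TPM (25.9 to 30.5) in the libraries labelled KO and WT. Its log2 fold change was -0.31, and 17.1% of all genes were lower. For both genes the counting intervals of the 2 libraries did not overlap, but neither passed the size rule.

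Klf6 (gene ID 23849) lies on chromosome 13 at 5861489 to 5870393, plus strand, with 4 exons in NM_011803. Its first exon was at 28.5 TPM-equivalents in the library labelled KO and 55.9 in the library labelled WT, a log2 ratio of -0.97 (-1.33 to -0.62). The inner exons 2 and 3 had log2 ratios of -0.67 and -0.78. The last exon, almost all of it 3' untranslated, was at 35.0 and 50.9 TPM-equivalents, a log2 ratio of -0.54 (-0.65 to -0.43). S1pr4 (gene ID 13611) lies on chromosome 10 at 81497745 to 81500137, minus strand, and is a single-exon gene with no part to set against another.

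Foxo1 and Foxp1 encode forkhead factors. FOXO1 activates Klf2, Il7r and Ccr7 in T cells, and FOXP1 keeps naive T cells quiescent and opposes FOXO1 at Il7r. Foxo1 stood at 22.4 TPM (21.3 to 23.7) for the library labelled KO and at 28.7 TPM (27.2 to 30.3) for the library labelled WT, a log2 fold change of -0.34. Foxp1, the most abundant of the 6 in both libraries, stood at 51.9 TPM (50.3 to 53.5) and 61.3 TPM (59.4 to 63.3) in the libraries labelled KO and WT, a log2 fold change of -0.24. The share of all genes with a lower fold change was 14.5% for Foxo1 and 25.5% for Foxp1. In both genes the 2 counting intervals did not overlap. In the order of levels, S1pr4 and Foxo1 stood next to each other in both libraries with overlapping intervals, and every other pair of neighbours was separate.

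Foxo1 (gene ID 56458; chromosome 3, 52268337 to 52350109, plus strand, NM_019739) was lower by a like amount in all 3 exons. The log2 depth ratio was -0.40 (-0.75 to -0.05) in exon 1, -0.39 (-0.58 to -0.20) in exon 2 and -0.33 (-0.47 to -0.19) in the untranslated exon 3. An antisense gene, Gm20402, overlaps 674 of its 5552 exonic bases, and reads of the 2 genes cannot be told apart here.

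Foxp1 was lower in its 5' exons and level in its last exon, so that its whole-gene value is a mean over unlike parts. Foxp1 (gene ID 108655) lies on chromosome 6 at 98925342 to 99520993, minus strand, and has 4 RefSeq transcripts that begin at 4 different first exons and share the last one. Overlapping exons were merged and depth was summed over transcripts, which gave 22 exons counted from the 5' end. The last exon, of 4893 bases, was at 47.4 TPM-equivalents in the library labelled KO and 47.8 in the library labelled WT, a log2 ratio of -0.013 (-0.10 to 0.07). Exons 10 to 21, all coding, together had a log2 ratio of -0.45 (-0.56 to -0.34), with single exons from -0.63 to -0.15. Exons 1 to 9, which hold all 4 starts and the beginning of the coding sequence, together had a log2 ratio of -0.94 (-1.17 to -0.71), a level 1.92-fold lower in the library labelled KO. In this stretch 8 exons had 3 or more read pairs in a library. Their log2 ratios ran from -1.52 to -0.78, and 5 of the 8 had intervals wholly below 0. These borders were set after the exon values were seen. A predicted gene on the same strand, Gm20696, overlaps part of the 5' stretch, as given below.

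**Figure D3:**
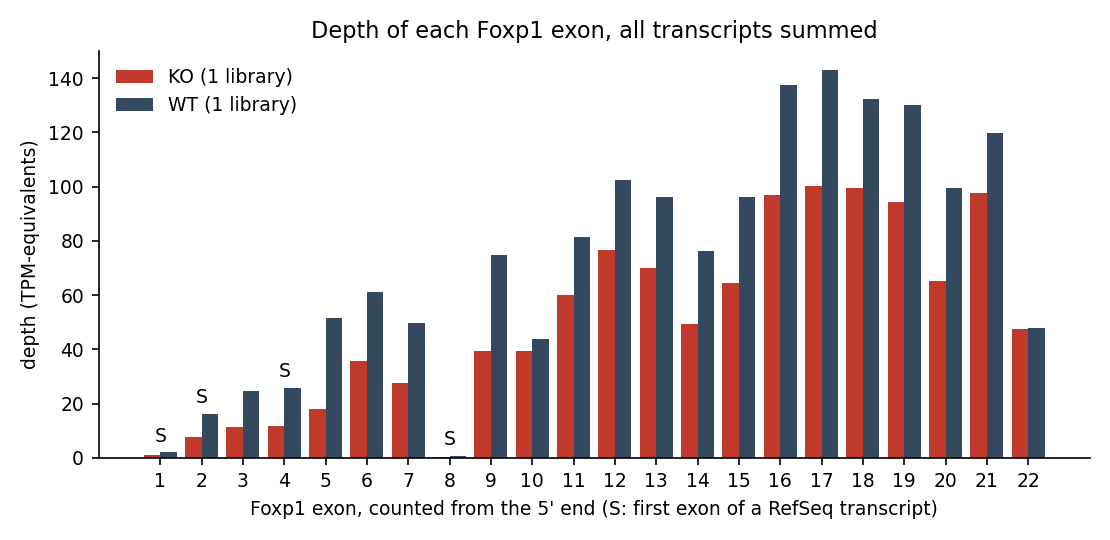
Depth in TPM-equivalents (y axis, from 0) of each of the 22 Foxp1 exons in 5' to 3' order (x axis), in the library labelled KO (red) and the library labelled WT (dark), 1 library each and no error bars. S marks the 4 first exons of RefSeq transcripts. The red bars are about as high as the dark ones at exon 22 (47.4 and 47.8) and lower at the other exons.

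Across all genes, depth was also lower upstream of the last exon in the library labelled KO, and Foxp1 lay near the lower edge of that distribution. Upstream stands for all exonic bases outside the terminal exon of the most abundant transcript. In 6798 genes both parts held 100 or more read pairs, and over these the upstream log2 ratio minus that of the terminal exon had a median of -0.20, with 5% of genes below -0.53 and 5% above 0.11. For Foxp1 this difference was -0.53, and 4.90% of genes were lower. It was -0.23 for Klf6, -0.06 for Foxo1 and 0.17 for Klf2, where 97.0% of genes were lower. The Klf2 log2 ratios were -1.02 upstream (-1.29 to -0.76) and -1.19 in the last exon (-1.45 to -0.93). These intervals overlap, so counting error leaves the order of these parts unsettled. S1pr1, with 4.46 and 8.80 read pairs upstream, gave no usable difference, and S1pr4 has no upstream part. Read against the all-gene medians of -0.17 upstream and 0.03 in terminal exons, Foxp1 was at -0.54 upstream and -0.013 in its terminal exon. The part of RNA quality in this shift was not tested.

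**Figure D4:**
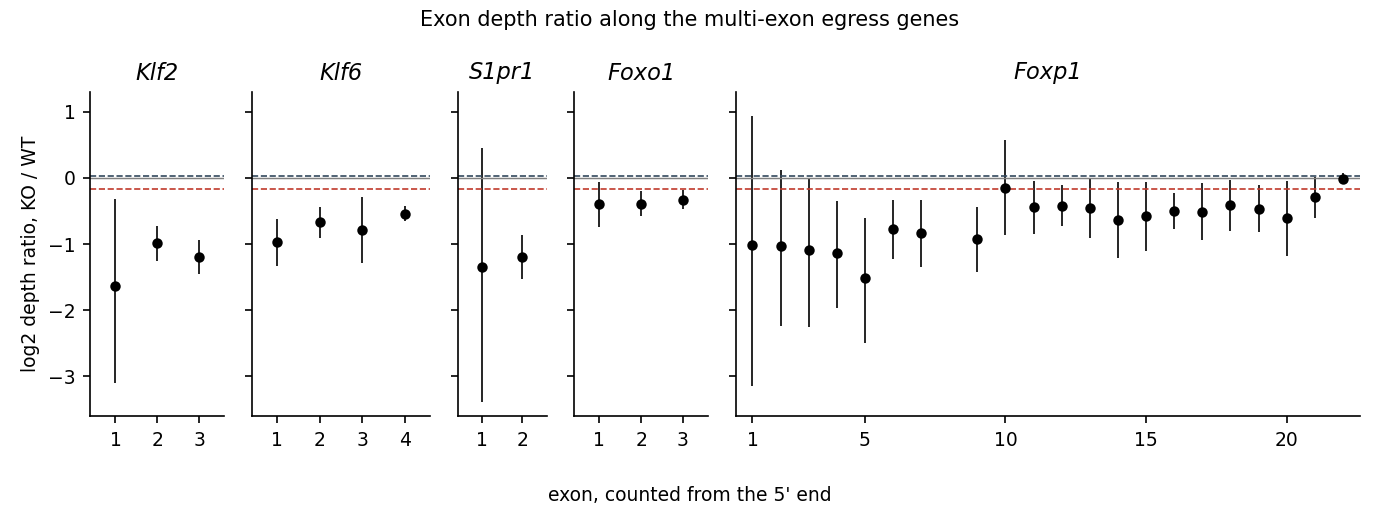
Log2 depth ratio, library labelled KO over library labelled WT (y axis), of each exon in 5' to 3' order (x axis) of the 5 multi-exon egress genes, with 95% exact binomial intervals. Foxp1 exon 8, with under 1 read pair in each library, is left out. Dashed lines are the medians over all genes of upstream parts (red, -0.17) and terminal exons (dark, 0.03). Points of Klf2 and S1pr1 lie at or below about -1, those of Foxo1 between -0.40 and -0.33, and those of Foxp1 run up to -0.013 at the last exon.

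The Foxp1 starts differed in depth by over an order of magnitude, and 1 of the 4 had a depth ratio with an interval below 0. The first exon of NM_001197321 was the deepest, at 11.7 TPM-equivalents in the library labelled KO and 25.9 in the library labelled WT (log2 ratio -1.14, -1.97 to -0.35). That of NM_053202, which is also the second exon of NM_001347345, was at 7.84 and 16.1 (log2 ratio -1.04, -2.25 to 0.11), and that of NM_001347345 at 0.994 and 2.0 (log2 ratio -1.01, -3.15 to 0.94). The first exon of NM_001197322 held 0.478 and 0.908 read pairs, too few for a ratio. Summed, the 4 first exons had 38.3 read pairs in the library labelled KO and 63.6 in the library labelled WT, a ratio of 0.467 (0.305 to 0.708).

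The authors' transcript estimates differed from the depth of these exons, but the 2 are unlike measures. In Klf2, Klf6, S1pr1 and Foxo1, each with 1 transcript, the first exon was also less deep than the second in both libraries. Klf2 exons 1 and 2 were at 7.45 and 20.6 TPM-equivalents in the library labelled KO. Over 5532 genes the first exon log2 ratio minus that of the terminal exon had a median of -0.27. NM_001197321 was estimated at 14.3 TPM in the library labelled KO and 13.1 TPM in the library labelled WT, while its own first exon was at 11.7 and 25.9 TPM-equivalents. Its share of the TPM of Foxp1 was 27.6% and 21.3%. NM_053202 was given 43.7% and 46.7%, NM_001347345 18.1% and 16.6%, and NM_001197322 10.7% and 15.4%. NM_001197322 was thus estimated at 5.54 and 9.44 TPM while its own first exon held under 1 read pair in each library. All 4 transcripts share exons 9 to 22, which leaves their shares uncertain. A predicted gene on the same strand, Gm20696, overlaps 300 of the 7877 exonic bases of Foxp1.

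RefSeq windows before the first exons of NM_001347345 and NM_001197321 are shown because they mark the most distal annotated start and the start with the deepest first exon. They are chr6:99520994-99521243 and chr6:99266516-99266765 of GRCm38.p6, minus strand, 250 bases each, with capitals as for Klf2.
Foxp1 NM_001347345: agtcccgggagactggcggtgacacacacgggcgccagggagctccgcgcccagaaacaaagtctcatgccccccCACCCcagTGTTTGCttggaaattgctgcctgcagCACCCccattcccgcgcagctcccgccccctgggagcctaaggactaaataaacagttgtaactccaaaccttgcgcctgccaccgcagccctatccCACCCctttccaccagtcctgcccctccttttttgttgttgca
Foxp1 NM_001197321: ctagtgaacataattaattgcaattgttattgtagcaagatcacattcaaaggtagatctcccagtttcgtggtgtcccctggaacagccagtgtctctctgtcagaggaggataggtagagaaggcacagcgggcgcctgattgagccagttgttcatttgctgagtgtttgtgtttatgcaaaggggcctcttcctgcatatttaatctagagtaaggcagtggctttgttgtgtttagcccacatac
The distal window has 3 matches to CACCC and 1 to TGTTTNC, which starts 167 bases before the transcript start. The window of NM_001197321 has no match to any of the 3 motifs. Windows of this table were available for 5 of the 6 egress genes, and none was printed for S1pr1.

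Apart from the egress genes, no KLF, FOXO or FOXP gene that reached 1 TPM passed the size rule. Other forkhead genes were not listed. Of the 10 other KLF genes that reached 1 TPM, 9 were below 0, where 61.5% of all genes lay, and 3 had a depth ratio whose interval included 1. Their median was -0.22. Klf7 was at 15.8 and 23.0 TPM in the libraries labelled KO and WT (log2 fold change -0.51), and Klf13, the most abundant family member, at 115 and 139 TPM (-0.26). Klf10, a TGF-beta induced gene, was the only one above 0, at 49.0 and 45.3 TPM (0.11). Of the 4 other FOXO and FOXP genes that reached 1 TPM, 3 were below 0, with a median of -0.19. Foxo3 was at 29.7 and 45.1 TPM (-0.59) and Foxo4 at 54.0 and 61.6 TPM (-0.19), while Foxp3, the regulatory T cell factor, was at 1.61 and 1.23 TPM (0.23).

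Of the genes that act on KLF2 and FOXO1, 1 passed the size rule. Among all genes, 1.37% were lower and 0.657% higher by this much, so the count does not set these genes apart. Of 9 genes upstream of KLF2 or linked to its turnover, 8 reached 1 TPM and 0 passed the size rule, with a median of -0.20. All 8 were below 0, against 61.5% of all genes, and 2 of them, Map2k5 and Mef2a, had depth ratios whose intervals included 1. Mef2d, a factor of the family that binds the MEF2 element, was at 159 TPM in the library labelled KO and 227 TPM in the library labelled WT (-0.52), Mef2a at 85.6 and 88.3 TPM (-0.04), and the kinase gene Map3k3 at 45.5 and 63.3 TPM (-0.47). Of 32 genes of the PI3K-AKT branch and other FOXO1 modifiers, 23 were below 0, against 61.5% of all genes. Their median was -0.12, and 1 passed the size rule. That gene was Sirt1, which encodes a deacetylase that acts on FOXO proteins, at 18 and 37.8 TPM (-1.03). Akt1 was at 185 and 187 TPM (-0.02) and the acetyltransferase gene Crebbp at 41.9 and 67.4 TPM (-0.67). The highest was Skp2, a ubiquitin ligase subunit gene, at 10.6 and 7.70 TPM (0.41).

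Genes linked to FOXO1 lay on both sides of 0. Of 18 FOXO1-linked genes, 14 were below 0, against 61.5% of all genes. Only Klf2 passed the size rule, on the lower side, where 1.37% of all genes passed. The list median was -0.17. Ccr7, the chemokine receptor that guides cells to the medulla and to lymph nodes, was at 65.1 TPM in the library labelled KO and 101 TPM in the library labelled WT (-0.62). Irs2, an insulin receptor substrate gene, was at 5.18 and 9.0 TPM (-0.69), and Il7r, the IL-7 receptor chain, at 45.7 and 54.3 TPM (-0.24). Rag2, which encodes a subunit of the V(D)J recombinase, was higher, at 44.3 and 35.5 TPM (0.31).

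Among the S1P receptors, S1pr1 and S1pr4 were lower and S1pr2 was level. S1pr2 stood at 14.4 and 13.9 TPM in the libraries labelled KO and WT (0.04), above S1pr1 in both. S1pr3 was at 0.10 and 0.0258 TPM and S1pr5 at 0.287 and 0.324 TPM, each on 8 or fewer read pairs, so neither is described further. Of 19 genes that make, move or degrade S1P and its precursors, 14 reached 1 TPM, with a median of -0.18. Of these, 11 were below 0, against 61.5% of all genes, and 0 passed the size rule. The lyase gene Sgpl1, which degrades S1P, was at 36.0 and 45.7 TPM (-0.34), and the kinase gene Sphk2 at 41.0 and 47.5 TPM (-0.21). The ceramide synthase genes Cers6, at 16.2 and 25 TPM (-0.59), and Cers4, at 7.96 and 12.3 TPM (-0.57), were the lowest, and the desaturase gene Degs1, at 56.2 and 49.0 TPM (0.19), the highest.

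Downstream signalling and migration genes centred on 0. Of 28 such genes, 16 were below 0, 12 above and 0 passed the size rule, with a median of -0.03 that turned to 0.03 when the TPM of the library labelled KO was rescaled and to 0.07 with FPKM. Gnai2, the G protein subunit that couples S1PR1, was at 695 TPM in the library labelled KO and 663 TPM in the library labelled WT (0.07). Grk2, the kinase that desensitises S1PR1 in blood, was at 314 and 370 TPM (-0.24), and Coro1a, an actin regulator needed for egress, at 2762 and 2557 TPM (0.11). The lowest of the 28 were Dnm2 (-0.32), for dynamin 2, and Dock2 (-0.29), an activator of Rac, and the highest were Rap1b (0.19), for a small GTPase, and Rgs1 (0.20), a damper of G protein signals. Among 14 retention and homing receptors the median was -0.10, 10 were below 0, against 61.5% of all genes, and 0 passed the size rule. Cd69 itself was higher, at 522 and 430 TPM (0.28), Ccr9 was at 913 and 964 TPM (-0.08), and Plxnd1, a semaphorin receptor gene of DP cells, at 94.6 and 134 TPM (-0.50).

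**Figure D5:**
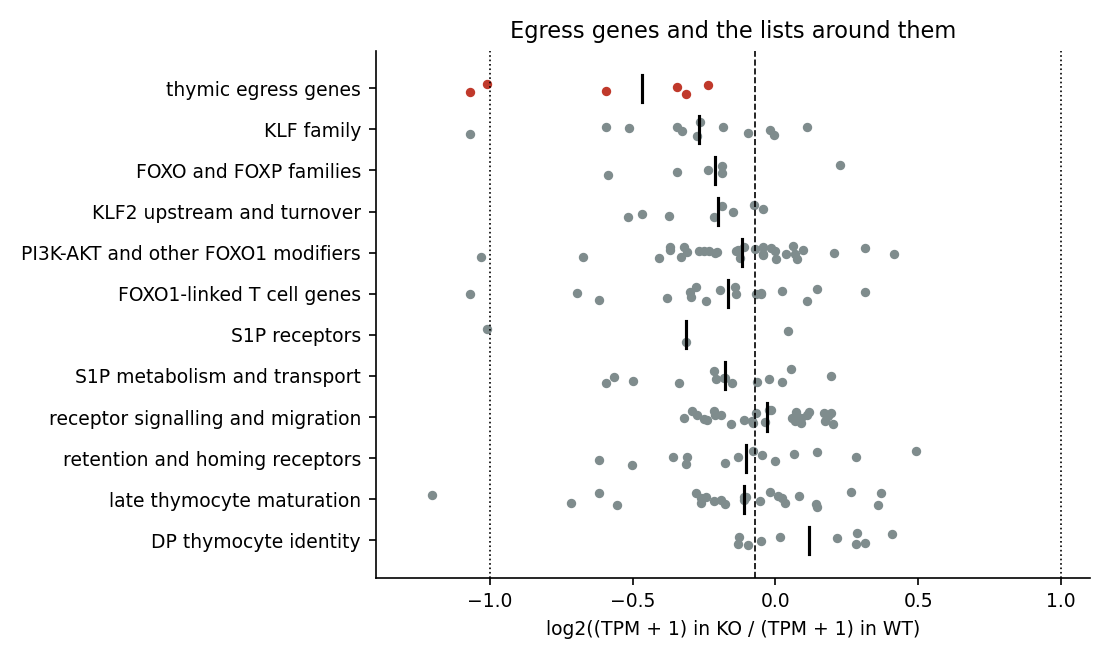
Log2 fold change, library labelled KO over library labelled WT (x axis), of single genes with at least 1 TPM in a library (points, spread vertically for sight) in the egress set (red) and 11 further lists (grey). Black bars are list medians, the dashed line is the median of all genes (-0.07), and the dotted lines mark the size rule. The egress set has the lowest median, -0.47, and the DP identity list the highest, 0.12. Grey lists include the egress genes that belong to them. The S1P receptor median of -0.31 is S1pr4 itself, and the KLF family median of -0.27 is -0.22 without egress genes.

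Of 25 genes of late thymocyte maturation, 16 were below 0, close to the 61.5% of all genes, and the list median was -0.11. Of the 25, 1 was lower by the size rule, against 1.37% of all genes. It was Samhd1, at 24.2 TPM in the library labelled KO and 56.9 TPM in the library labelled WT. The summed level of the 25 genes was 5330 TPM in the library labelled KO and 5520 TPM in the library labelled WT. The 10 DP identity genes had a median of 0.12, with 6 above 0 and Dntt the highest at 760 and 572 TPM (0.41). Klf2 and S1pr1 are also known in endothelium. The endothelial genes Tie1, Tek, Emcn and Cldn5 were listed at 0 in both libraries. Cdh5 was at 0.360 and 0.174 TPM and Egfl7 at 1.66 and 1.02 TPM in the libraries labelled KO and WT. The summed 12 endothelial markers were at 127 and 151 TPM, nearly all from Pecam1 and Eng, which T cells can also express. The 11 macrophage and dendritic cell markers summed to 297 and 385 TPM, with Cd74 at 148 and 199 TPM and C1qc at 7.10 and 5.17 TPM. Of the 10 that reached 1 TPM, 5 were below 0 and 5 above, and their median of -0.08 turned to 0.07 among genes with at least 5 TPM. The 6 matched B cell markers summed to 65.6 and 56.6 TPM. The part of these markers and their cells in the egress gene levels was not tested.

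Klf2 and Klf6 also respond to handling and stress in many cell types, and the handling response genes are therefore given beside them. Of 18 such genes, 17 reached 1 TPM, with a median of -0.06 that turned to 0.00028 with FPKM. Of these, 11 were below 0, against 61.5% of all genes, and 3 were lower by the size rule, against 1.37%. These 3 were the heat shock genes Hspa1a, Hspa1b and Hsph1, the last at 68.0 TPM in the library labelled KO and 147 TPM in the library labelled WT. Atf3, which the filter left out, was at 0.295 and 0.999 TPM on 6.49 and 17.1 read pairs. The immediate-early genes showed no shared direction, with Jun at 50.3 and 70.5 TPM (-0.48), Fos at 85.8 and 89.5 TPM (-0.06), Egr1 at 295 and 320 TPM (-0.12), Junb at 301 and 244 TPM (0.30) and Dusp1 at 123 and 101 TPM (0.29). The part of the heat shock difference in Klf2 and Klf6 was not tested.

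By level over the 2 libraries, the genes nearest to Klf2 were the histone genes H2ac18, at 19.2 and 41.2 TPM in the libraries labelled KO and WT, and H4c9, at 18.8 and 39.4 TPM, followed by Vasn at 17.4 and 40.5 TPM. Their distances from Klf2 on the log2(TPM + 1) scale were 0.011, 0.082 and 0.14. Nearest to S1pr1 were Snora30, at 3.64 and 8.09 TPM, Grb7, at 3.47 and 8.79 TPM, and Ston1, at 3.86 and 8.71 TPM. With only 2 libraries this likeness holds no more than a shared level and ratio, and reads of near-identical histone copies cannot be told apart.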

How the data were processed

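RNA of sorted thymocytes was sequenced in 2 libraries, grouped by the genotype in the labels. The submitters' processing notes name HISAT2 and the mm10 (GRCm38) genome. Per the file headers, the authors quantified RefSeq transcripts with StringTie 1.3.3b. The deposited TPM sums to 1000000 per library. The deposited FPKM served as an alternative. The authors' coverage is mean depth per base, unscaled. No source used here gives strand use or filters on reads.

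TPM of rows with the same gene ID were summed, and 24462 of 24532 IDs matched a RefSeq symbol. TPM keeps no depth, so read pairs were estimated as covered bases (coverage times length) divided by 202, since in the KO and WT libraries 30.9% and 30.0% of thinly covered transcripts lay within 2 bases of a multiple of 202, against 2.48% by chance. Covered bases were 5076 and 4199 megabases. Levels have exact Poisson and ratios exact binomial (Clopper-Pearson) 95% intervals, for counting error only. The floor was 3 read pairs.

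Genes with at least 1 TPM in a library entered the comparison, with a pseudocount of 1 TPM and a size rule of 1 on the log2 scale. The egress genes and the 21 lists with 268 names, of which 1 was not matched, were chosen with earlier results of these data known. The text names the egress genes, in each list genes past the size rule or among the 2 highest and 2 lowest, and the 3 genes nearest in level to Klf2 and to S1pr1. Other genes were named for their known role, after their values were seen, as were the borders of the Foxp1 exon stretches. Exon parts, overlaps and shared 50-base words used GENCODE M21 (GRCm38). Alternatives were the pseudocount, FPKM, the filter on low values, rescaling, read pairs per total, and parts of genes. Scripts ran in Python 3.11.15 with scipy 1.17.1 for intervals, pandas 2.3.3, matplotlib 3.10.9 and numpy 2.4.6.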

Additional observations from a re-analysis of the deposited data

How the results depend on the processing

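All 6 egress genes stayed below 0 in each of the 45 alternative values. This count is not a set of separate checks, since a change of pseudocount cannot change a sign. For S1pr1 the first exon is also the whole part outside the terminal exon, so the same value enters under both settings. Both Klf2 and S1pr1 passed the size rule with a pseudocount of 0.1 TPM and without or with stricter filters. These settings could not have failed. A smaller pseudocount only enlarges a fold change, and a filter leaves the value of a kept gene unchanged. Both genes exceed 5 TPM in the library labelled WT, at 41.5 and 8.28 TPM. Neither passed with a pseudocount of 5 TPM (S1pr1 -0.63) or with FPKM and a pseudocount of 1 FPKM. After rescaling, Klf2 alone passed. With FPKM, Klf6 was at -0.48 and Foxp1 at -0.14, and Foxp1 was also at -0.14 by read pairs per total. Outside the terminal exon, Klf6 was at -0.77 and Foxp1 at -0.54. In the terminal exon alone Foxp1 was at -0.013, with an interval of -0.10 to 0.07 that includes 0. In the first exon alone, a setting chosen after seeing the data, Klf2 was at -1.63, Klf6 at -0.97 and Foxp1 at -1.04. Of 12029 genes, 165 were lower and 79 higher by the size rule, 305 and 139 with a pseudocount of 0.1 TPM, 34 and 21 with 5 TPM, 50 and 51 with FPKM (over 10919 genes with at least 1 FPKM or, added after seeing the data, over the same 12029), and 83 and 46 among genes with at least 5 TPM. Of 85 alternative list medians, 10 moved by more than the counting error of their genes and 4 changed sign. The median of all genes was -0.07, against 0.03 with FPKM over the 10919 genes and -0.02 after rescaling. The causes were not tested. No paired analysis was possible because each genotype has 1 library. S1pr1 is limited most by depth, with 122 and 217 read pairs.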

Other observations

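Among markers of natural killer and innate-like T cells, values did not share a direction. Zbtb16, which encodes the factor PLZF of innate-like T cells, stood at 0.0961 TPM in the library labelled KO and 1.05 TPM in the library labelled WT, on 5.48 and 46.3 read pairs. The receptor genes Klrb1c, at 5.68 and 3.06 TPM, and Klrd1, at 6.88 and 3.82 TPM, were higher in the library labelled KO, and Ncr1 was at 3.83 and 4.30 TPM. These values enter no comparison of the egress genes.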
